A study of Mus musculus with 20 samples.

Results

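The 39 genes described here encode enzymes of the lysosome, the proteins of its membrane, subunits of its proton pump and the transcription factors that act on lysosomal genes. They were taken from a list of symbols, each matched to 1 identifier of a count table of 63318 genes. The rule that picks them uses no expression value, but the list was drawn up with earlier results of these data known. They fall into 8 cysteine proteases, 3 other peptidases, 8 glycosidases, 5 lipid hydrolases, 2 sterol exporters, 4 membrane proteins grouped with progranulin, 3 transcription factors of the MiT family and 5 proton pump genes. Poly(A) RNA of mouse heart was measured by short-read sequencing in 4 groups of 4 libraries. Hearts with myocardial infarction (MI) were taken 72 h after surgery, and RNA came from the infarct core together with its periphery. Hearts with ischemia-reperfusion (IR) went through 40 min of "LCA", which the labels do not spell out, followed by 72 h of reperfusion, and RNA came from the core only. Each injury had a sham-operated group, MISham and IRSham, described as using the same tissue as its injured group. Injury type and sampled region therefore cannot be told apart. The sources used here give no strain, age or sex and do not say whether each library is a separate animal, so the p-values cover only the variation between these libraries, which may be technical.

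Lysosomes break down proteins, glycans and lipids that reach them from outside the cell, by phagocytosis or endocytosis, and from inside it, by autophagy. Their hydrolases work at the acid pH that the vacuolar proton pump, a rotary ATPase with a membrane sector (V0) and a cytosolic sector (V1), maintains. TFEB, TFE3 and MITF are related transcription factors that bind E-box motifs in the promoters of many lysosomal genes, and their activity is set largely by phosphorylation and nuclear entry. In the heart, macrophages that clear dead tissue after an infarct are rich in lysosomes, while cardiomyocytes depend on lysosomes for glycogen breakdown and autophagy.

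The MI libraries were the deepest, with totals of 57.2 to 63.1 M counts. The MISham libraries held 24.3 to 27.6 M, the IR libraries 26.2 to 31.8 M and the IRSham libraries 25.5 to 29.8 M. CPM below are counts scaled to a common library total with TMM factors, which correct for the composition of each library. MISham replicates 1 and 3 stood apart from replicates 2 and 4, as did IR replicates 1 and 3 from their own group, so counts that rest on them are also given without them. The summed level of 14 macrophage markers was 3080 to 4260 CPM in MI against 725 to 1690 in MISham, and 3450 to 6010 in IR against 1290 to 2050 in IRSham. All 14 of these markers rose after MI and 13 rose after IR, with median log2 fold changes of 1.89 and 1.49. The 8 cardiomyocyte markers summed to between 11700 and 21800 CPM in MI against 65000 to 77000 in MISham, and to between 13200 and 26900 in IR against 70200 to 75400 in IRSham. All 8 fell after both injuries. Of 6 neutrophil markers tested, 5 rose after MI and 2 after IR. Of 7 fibroblast markers 5 rose and 1 fell after MI and 6 rose after IR. Over all genes tested, 34.8% rose and 30.2% fell after MI, and 29.5% rose and 28.2% fell after IR. In bulk tissue, fewer cells of a type and less RNA per cell cannot be told apart, and the part that these markers' cells have in the changes below was not tested.

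Most of the lysosomal genes rose after both injuries. After MI, 32 of 39 were higher than in MISham and 6 were lower, and after IR 33 were higher than in IRSham and 4 were lower, by edgeR's quasi-likelihood test at an adjusted p under 0.05. Over all 19741 genes tested, 34.8% were higher and 30.2% lower after MI, and 29.5% were higher and 28.2% lower after IR, so the 82.1% and 84.6% of lysosomal genes called higher were above these shares, and the 15.4% and 10.3% called lower were below them. The median log2 fold change of the 39 genes was 0.94 after MI and 1.08 after IR, against 0.08 and 0.03 over all genes tested. At least a 2-fold rise was seen in 18 of the 39 genes after MI and in 21 after IR, against 17.7% and 13.1% of all genes tested. All 39 genes passed the filter on low counts, and none was left out. In 32 genes both calls were higher, in 4 both were lower, and no gene was called in opposite directions.

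The libraries of an injured group and its sham did not overlap in 37 of the 39 genes after MI and in 36 after IR. The same count was not made over all genes, so these numbers are not read as particular to these genes. Leaving out MISham replicates 1 and 3 gave 32 genes higher and 5 lower after MI with a median of 1.09, against 31.7% and 26.6% of all genes then tested. Leaving out IR replicates 1 and 3 gave 33 higher and 4 lower after IR with a median of 1.21, against 26.4% and 26.5%. MISham replicates 1 and 3 were the higher shams in 22 of the 39 genes. IR replicates 1 and 3 were the lower injured libraries in 32. Leaving them out therefore favours larger rises and is no independent check. The split depends on the scaling. With limma on log2 of the summed transcript TPM plus 1, 35 genes were higher and 1 lower after MI, and 36 were higher and 1 lower after IR. On that scale the whole table moved too, with 66.3% of 14302 genes higher and 12.8% lower after MI and 62.4% higher and 11.9% lower after IR. The median change of all genes there was 0.70 after MI and 0.57 after IR. Scaling by library size alone moved that median to 0.39 and 0.32, with 33 members higher and 3 lower after MI, against 47.2% and 21.6% of all genes, and 35 higher and 4 lower after IR, against 42.6% and 19.0%.

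**Figure D1:**
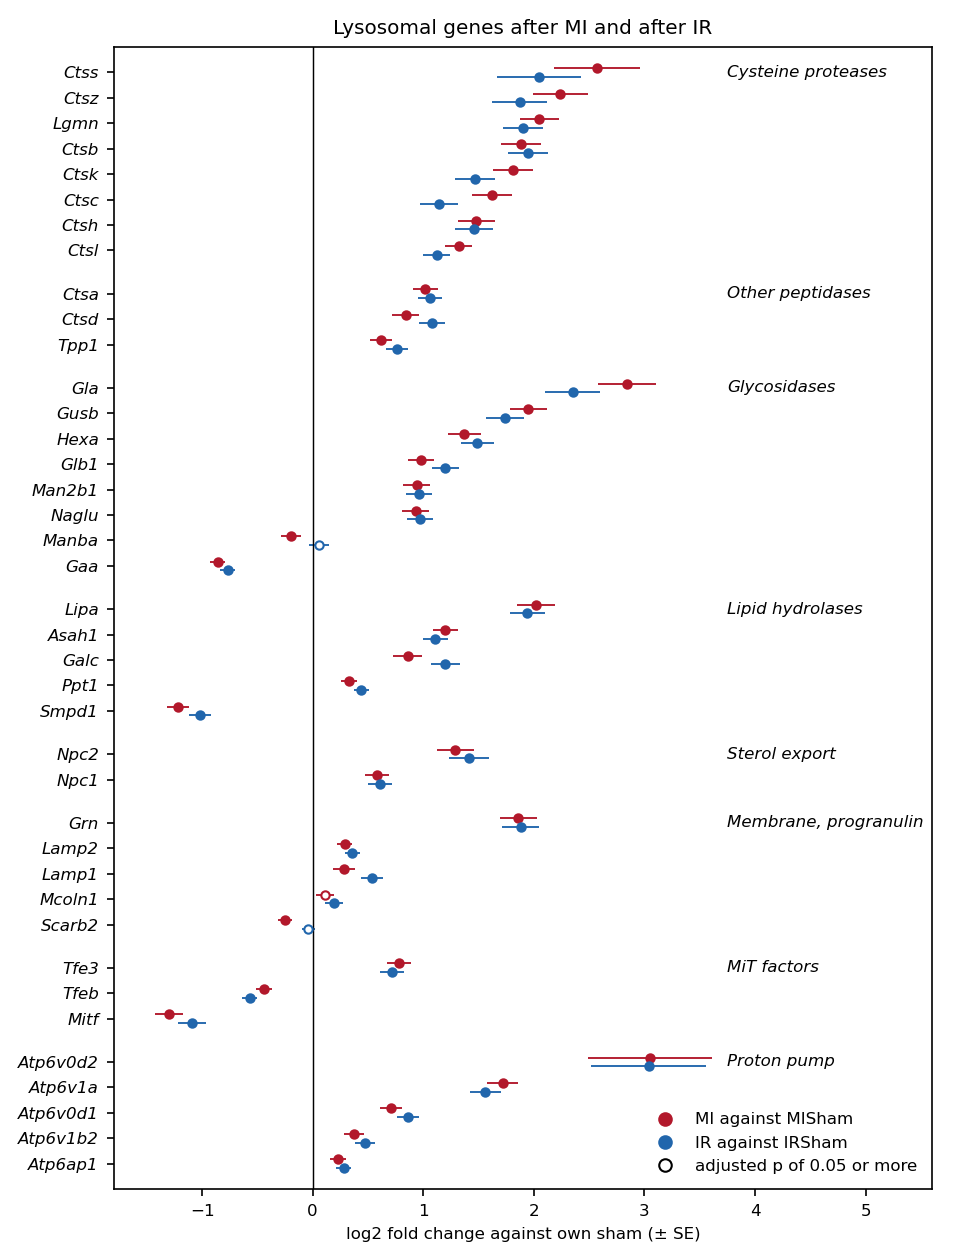
The log2 fold change of each of the 39 genes against its own sham group (horizontal axis), with its standard error, for MI in red and IR in blue; genes are grouped by role and open circles mark an adjusted p of 0.05 or more. All cysteine proteases and proton pump genes lie to the right of 0. On this count scale Gaa, Smpd1, Tfeb and Mitf lie to the left after both injuries. Tfeb has the opposite sign on the TPM scale, where the median gene also rose.

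The 3 MiT factors did not move together. Tfe3 rose after both injuries and Mitf fell, while Tfeb fell on the count scale and was higher on the TPM scale. Tfe3 stood at 60.4, 65.8, 54.8 and 58.5 CPM in MI and at 41.8, 30.6, 38.1 and 29 CPM in MISham. It stood at 62.4, 64.6, 54.6 and 66.7 CPM in IR and at 34.9, 39.6, 34.9 and 41.6 CPM in IRSham. Every injured library lay above every sham library, with log2 fold changes of 0.78 ± 0.11 (SE, adjusted p = 5.46e-06) after MI and 0.72 ± 0.11 (adjusted p = 1.95e-05) after IR.

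Mitf, best known from melanocytes and osteoclasts, was at 25, 19.9, 26 and 23.6 CPM in MI against 54, 67.2, 51.3 and 60.6 CPM in MISham. The IR libraries held 31.3, 21.2, 30.2 and 22.2 CPM against 58.1, 51.6, 55 and 59.1 CPM in IRSham. The groups did not overlap, and the log2 fold changes were -1.30 ± 0.13 (adjusted p = 9.58e-08) and -1.09 ± 0.13 (adjusted p = 1.22e-06). On the TPM scale, where the median gene rose by 0.70 and 0.57, the changes were smaller, at -0.26 after MI and -0.18 after IR. Neither passed limma's test (adjusted p = 0.132 and 0.289).

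Tfeb, the factor most often described as the master regulator of lysosome formation, was at 34.3, 33.3, 36.7 and 35.1 CPM in MI and at 45.6, 47.2, 45.2 and 51 CPM in MISham. The IR libraries were at 33.6, 34, 33.2 and 37.1 CPM and the IRSham libraries at 50.6, 55.1, 45.6 and 52.9 CPM. No injured library reached its sham group, and the log2 fold changes were -0.44 ± 0.07 (adjusted p = 2.14e-05) after MI and -0.57 ± 0.07 (adjusted p = 2.16e-06) after IR. The sign of Tfeb turned on the TPM scale, to 0.37 after MI (limma, adjusted p = 0.00589) and 0.25 after IR (adjusted p = 0.0483), where the median gene also moved up by 0.70 and 0.57. Library size alone left the MI value at -0.13 (adjusted p = 0.0931). The sign of Tfeb therefore holds only relative to a scale. On each scale named here Tfeb lay below the median gene. That median after MI was 0.08 with TMM, 0.39 with library size alone and 0.70 in TPM. After IR it was 0.03 with TMM and 0.57 in TPM.

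The motifs that these factors bind were looked up in the promoters of the members. Whether the factors act on these genes here was not tested. RefSeq promoter windows on GRCm38.p6, from 250 bases before to 50 bases after a gene's start, were found for 33 of the 39 genes. The E-box core CACGTG, which reads the same on both strands, lay in the window of 12 of the 33 (36.4%) against 8.09% of 27025 genes. The longer TCACGTGA, which holds that core, lay in 6 (18.2%) against 1.12% of genes, namely Atp6v0d1, Atp6v1a, Ctsa, Ctsd, Gla and Mcoln1. The related TCATGTGA, known as the M-box and searched on both strands, lay in 5 (15.2%) against 1.15%, namely Ctss, Gla, Grn, Ppt1 and Tpp1. These shares are descriptions with no test, and a match is not a site of binding. Of the 12 genes with the core, 10 rose and 1 fell after MI, and 11 rose and 1 fell after IR. The one that fell was Gaa. Of all 39 genes, 82.1% rose after MI and 84.6% after IR, so genes with the core rose about as often as the 39 together. The windows of the 6 genes with the longer motif, and of Gaa, are given 5′ to 3′ on the gene's strand with the core in capitals.
Atp6v0d1, chr8:105566051-105566078 (-): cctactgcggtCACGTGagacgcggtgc
Atp6v1a, chr16:44139374-44139401 (-): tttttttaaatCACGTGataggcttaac
Ctsa, chr2:164833750-164833777 (+): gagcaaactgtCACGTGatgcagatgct
Ctsa, chr2:164833767-164833794 (+): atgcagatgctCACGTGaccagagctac
Ctsd, chr7:142387909-142387936 (-): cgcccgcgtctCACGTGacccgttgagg
Gla, chrX:134601216-134601243 (-): aagcgattgatCACGTGagcatctacgt
Gla, chrX:134601183-134601210 (-): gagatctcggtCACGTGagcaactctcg
Mcoln1, chr8:3500463-3500490 (+): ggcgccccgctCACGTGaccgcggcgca
Gaa, chr11:119267812-119267839 (+): ttctgtgcgatCACGTGtttgactctga
Ctsa and Gla each hold the longer motif at 2 places. The 6 genes with it moved by different amounts, from 2.84 for Gla to 0.11 for Mcoln1 on the log2 scale after MI.

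All 8 cysteine proteases rose after both injuries, each by at least 2-fold, with median log2 fold changes of 1.84 after MI and 1.67 after IR. These papain-like cathepsins and legumain degrade proteins in the lysosome, and several are abundant in macrophages. Ctss, a cathepsin that also trims the invariant chain of MHC class II in antigen-presenting cells, was at 513, 482, 361 and 487 CPM in MI and at 144, 35.4, 81.7 and 49.7 CPM in MISham. It was at 608, 740, 404 and 679 CPM in IR and at 87.4, 129, 168 and 202 CPM in IRSham. All injured libraries lay above their shams, and both sham groups spread widely. The log2 fold changes were 2.57 ± 0.39 (adjusted p = 4.86e-05) and 2.05 ± 0.38 (adjusted p = 0.000373). Without MISham replicates 1 and 3 the MI value was 3.44 ± 0.37 (adjusted p = 3.46e-06).

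Ctsz, a carboxypeptidase of the same family, stood at 230, 254, 184 and 216 CPM in MI against 66.1, 30.4, 58.1 and 32.1 CPM in MISham. In IR it stood at 215, 313, 199 and 271 CPM against 48.7, 68.7, 75.8 and 80.8 CPM in IRSham. The groups were well separated, at log2 fold changes of 2.24 ± 0.25 (adjusted p = 2.1e-06) and 1.87 ± 0.25 (adjusted p = 1.64e-05), and the MI value was 2.83 without MISham replicates 1 and 3. Lgmn, legumain, which cuts after asparagine and activates several cathepsins, was at 387, 445, 298 and 400 CPM in MI and at 123, 72.6, 95.9 and 79.2 CPM in MISham. Its IR libraries were at 438, 605, 360 and 532 CPM and its IRSham libraries at 112, 125, 149 and 131 CPM. The log2 fold changes of Lgmn were 2.05 ± 0.18 (adjusted p = 9.07e-08) after MI and 1.90 ± 0.18 (adjusted p = 3.65e-07) after IR.

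Ctsb, an abundant lysosomal endo- and exopeptidase, was at 2900, 3340, 2250 and 3010 CPM in MI against 991, 661, 795 and 682 CPM in MISham. In IR it was at 3900, 4810, 2640 and 4250 CPM against 905, 999, 1090 and 1030 CPM in IRSham. The lowest injured library was more than double the highest sham library in both injuries, and the log2 fold changes were 1.88 ± 0.18 (adjusted p = 9.53e-08) and 1.95 ± 0.18 (adjusted p = 1.51e-07). The other 4 were Ctsk, the collagen-degrading cathepsin of osteoclasts, at 1.81 after MI and 1.47 after IR, Ctsc, which activates granule serine proteases, at 1.62 and 1.14, Ctsh at 1.48 and 1.46, and Ctsl, a broad endopeptidase, at 1.32 and 1.12.

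The 3 other peptidases rose by smaller amounts. Ctsa is a serine carboxypeptidase that also protects beta-galactosidase and neuraminidase in a complex. Its MI libraries held 345, 372, 296 and 352 CPM and its MISham libraries 192, 148, 174 and 161 CPM. The IR libraries held 416, 482, 322 and 456 CPM and the IRSham libraries 196, 206, 203 and 202 CPM. No injured library overlapped its shams. The log2 fold changes were 1.02 ± 0.11 (adjusted p = 4.35e-07) and 1.06 ± 0.11 (adjusted p = 5.42e-07). Ctsd, the aspartic protease of the lysosome, rose by 0.84 after MI and 1.08 after IR, and Tpp1, a tripeptidase lost in a childhood form of ceroid lipofuscinosis, by 0.62 and 0.76.

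In the test of transcript shares, the part of a gene's TPM held by each of its transcripts, the only calls among these genes were in Ctsa. Shares were tested with limma for 68 transcripts of 23 of the genes, and a call needed an adjusted p under 0.05 and a difference of 10 points of the share or more. The calls were 2 after MI and 2 after IR, the same 2 Ctsa transcripts, where 5.73% and 3.59% of 25606 transcripts over all genes were called, so these genes held no more calls than the table at large. At an unadjusted p under 0.05 there were 13 of the 68 after MI and 17 after IR, against 20.7% and 18.9% of all transcripts. Other settings called further transcripts. Requiring a summed TPM of at least 20, or testing the log ratio of a transcript to the rest of its gene, added Tpp1-205 after MI (adjusted p = 0.0398 and 0.0494) and Ctsh-204 and Tpp1-202 after IR. Over all genes these settings called 9.36% and 7.11% of transcripts after MI and 6.52% and 4.94% after IR. Leaving out MISham replicate 1 added Atp6v1a-201 after MI (adjusted p = 0.0473), and leaving out 1 of IRSham replicates 2, 3 and 4 at a time added Tfe3-214, Tpp1-202, and Ctsh-204 with Grn-201, after IR. The full-length transcript Ctsa-202 held 34.2%, 44.9%, 45.2% and 44.8% of the gene's annotated TPM in MI and 63.6%, 69.4%, 64.4% and 66.1% in MISham. In IR it held 45.4%, 47.8%, 58.4% and 48.3%, and in IRSham 66.9%, 68.3%, 58.5% and 74.7%. The share fell by 23.6 ± 3.91 points (SE, adjusted p = 0.00228) after MI and by 17.1 ± 3.91 points (adjusted p = 0.0228) after IR.

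The share gained by Ctsa-210 was of nearly the same size. That transcript held 30.4%, 24.8%, 18.1% and 26.9% in the MI libraries and 0%, 0%, 4.64% and 11.3% in the MISham libraries. The IR libraries gave 31.1%, 23.9%, 8.77% and 32.7%, and the IRSham libraries 0%, 0%, 9.81% and 0%. The MI groups did not overlap, while IR replicate 3 lay below IRSham replicate 3. The changes were 21.1 ± 4.73 points (adjusted p = 0.014) after MI and 21.7 ± 4.73 points (adjusted p = 0.0184) after IR. In TPM, Ctsa-202 itself was higher in the injured groups, at 60.6 ± 9.71 (SD, n = 4) after MI and 28.7 ± 2.79 in its sham, and at 79.0 ± 14.2 after IR and 36.8 ± 2.69 in its sham. Ctsa-210 was at 36.5 ± 10.3 TPM after MI and 1.7 ± 2.21 in its sham, and at 40.8 ± 21.6 TPM after IR and 1.46 ± 2.92 in its sham. These calls rest on few libraries. After MI, the call for Ctsa-210 was lost without MI replicate 1 (adjusted p = 0.0507) and without MISham replicates 1 and 3 (adjusted p = 0.0847). After IR, Ctsa-210 lost its call without IR replicate 4 (adjusted p = 0.0585) or IRSham replicate 1 (adjusted p = 0.0526). Ctsa-202 after IR lost its call without IR replicate 1, 2 or 4 or IRSham replicate 1, 2 or 4, each left out alone, at adjusted p of 0.0554, 0.0653, 0.0626, 0.0541, 0.0524 and 0.0652.

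What separates these 2 transcripts is shown because an exon inside the coding sequence differs. In GENCODE M21, Ctsa-202 has 15 exons and 2534 bases, and Ctsa-210 is an incomplete model of 659 bases and 8 exons whose start and end were not found. Ctsa-210 shares 6 whole exons with Ctsa-202 and joins the neighbours of exon 6 directly. Exon 6 lies at chr2:164835156-164835311 on the plus strand of GRCm38 and holds 156 bases, or 52 codons, so its loss keeps the reading frame. Capitals mark the 18 bases, positions 82 to 99 of the exon, that encode the serine carboxypeptidase signature around the catalytic serine.
Ctsa exon 6: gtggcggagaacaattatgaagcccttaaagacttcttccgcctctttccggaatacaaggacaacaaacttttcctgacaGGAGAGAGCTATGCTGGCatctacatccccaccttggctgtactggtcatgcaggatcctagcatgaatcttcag
The 7 annotated transcripts with this exon together held 56.1% ± 4.31 (SD, n = 4) of the TPM of Ctsa after MI and 76.5% ± 3.41 in its sham, and 58.9% ± 8.35 after IR and 83.3% ± 6.23 in its sham. The deposited values are estimated abundances, and reads across the exon's junctions were not analysed here. The stretch of Ctsa on the genome also overlaps the coding genes Neurl2 and Pltp on the opposite strand.

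Of the 8 glycosidases, which remove sugars from glycoproteins, glycolipids and glycogen, 6 rose after both injuries. Gla, the alpha-galactosidase that is lacking in Fabry disease, was at 26.9, 32.2, 23.7 and 26.6 CPM in MI and at 5.21, 2.88, 5.12 and 1.87 CPM in MISham. Its IR libraries were at 30.6, 46.2, 24.8 and 36.4 CPM and its IRSham libraries at 5.77, 6.78, 7.82 and 6.78 CPM. Every injured library was above every sham library several times over, with log2 fold changes of 2.84 ± 0.26 (adjusted p = 1.41e-07) and 2.35 ± 0.25 (adjusted p = 1.2e-06). Behind these values stood 40 to 130 counts in the MISham libraries and 1475 to 2296 in the MI libraries. The TPM of Gla did not follow its counts. Its MI libraries were listed at 1.14, 1.84, 0.95 and 0.651 TPM and its MISham libraries at 1.67, 0, 0 and 0 TPM, so its TPM is not read as a level here.

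Gusb, beta-glucuronidase, rose by 1.95 and 1.74, Hexa, a beta-hexosaminidase subunit, by 1.37 and 1.49, and Glb1, Man2b1 and Naglu by 0.93 to 0.98 after MI and 0.96 to 1.20 after IR. Gaa, acid alpha-glucosidase, which degrades glycogen and is lacking in Pompe disease, went the other way. The MI libraries held 116, 123, 136 and 119 CPM of Gaa and the MISham libraries 229, 228, 217 and 225 CPM. The IR libraries held 144, 123, 142 and 133 CPM and the IRSham libraries 247, 237, 224 and 220 CPM. No injured library came near a sham library, and the log2 fold changes were -0.86 ± 0.07 (adjusted p = 1.28e-08) and -0.77 ± 0.07 (adjusted p = 9.66e-08). On the TPM scale they were -0.14 and -0.18 and did not pass limma's test (adjusted p = 0.193 and 0.114). Manba, beta-mannosidase, was lower after MI at -0.20 ± 0.09 (adjusted p = 0.0447), a call that 7 of its alternatives lost and whose sign turned to 0.11 with library size alone and 0.51 on the TPM scale. After IR its value was 0.06, with a 95% interval from -0.11 to 0.23. It was called higher with library size alone (0.35, edgeR, adjusted p = 0.00199) and on the TPM scale (0.55, limma, adjusted p = 0.00328). With library size alone the median gene rose by 0.39 after MI and 0.32 after IR. On the TPM scale the median gene rose by 0.70 and 0.57.

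Of the 5 lipid hydrolases 4 rose after both injuries and Smpd1 fell. Lipa, the acid lipase that frees cholesterol from the esters of engulfed lipoproteins and membranes, was at 156, 160, 117 and 160 CPM in MI against 46.6, 31, 38.7 and 29.7 CPM in MISham. After IR, Lipa was at 184, 230, 133 and 186 CPM against 46.1, 48.4, 51.1 and 46 CPM in IRSham. The groups were far apart, at log2 fold changes of 2.02 ± 0.17 (adjusted p = 4.01e-08) and 1.94 ± 0.16 (adjusted p = 1.37e-07). Asah1, acid ceramidase, rose by 1.20 and 1.11, Galc, which cleaves galactosylceramide, by 0.86 and 1.20, and Ppt1, which removes fatty acids from proteins, by 0.33 and 0.44.

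Smpd1, acid sphingomyelinase, was at 93.6, 87.8, 123 and 105 CPM in MI against 230, 248, 217 and 259 CPM in MISham. After IR, Smpd1 was at 127, 99.9, 117 and 108 CPM against 246, 236, 212 and 220 CPM in IRSham. The highest injured library stayed well under the lowest sham library, and the log2 fold changes were -1.22 ± 0.10 (adjusted p = 2.22e-08) and -1.02 ± 0.10 (adjusted p = 3.05e-07). Npc1 and Npc2, which together pass free cholesterol out of the lysosome, both rose, Npc2 by 1.29 and 1.41 and Npc1 by 0.58 and 0.61.

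Among the membrane proteins and progranulin the changes were small except for Grn. Grn, progranulin, a secreted and lysosomal protein whose fragments support hydrolase function, rose by 1.86 ± 0.17 (adjusted p = 6.85e-08) after MI and 1.88 ± 0.17 (adjusted p = 1.46e-07) after IR. Lamp1 and Lamp2, the abundant glycoproteins that line the membrane, rose by 0.28 and 0.54 and by 0.29 and 0.36. Mcoln1, the calcium channel of the lysosome, was higher after IR at 0.19 ± 0.08 (adjusted p = 0.0467), a call that 8 of its alternatives lost. After MI its value was 0.11 with a 95% interval from -0.04 to 0.26. It was called higher with library size alone (0.42, edgeR, adjusted p = 0.000241) and on the TPM scale (0.84, limma, adjusted p = 7.93e-05). The median of all genes also rose on those scales, by 0.39 and 0.70. Scarb2, the receptor that carries glucocerebrosidase to the lysosome, was at 244, 243, 252 and 231 CPM in MI against 296, 286, 282 and 288 CPM in MISham. The groups did not overlap, and Scarb2 was lower at -0.25 ± 0.06 (edgeR, adjusted p = 0.00141) on this scale. Its sign turned to 0.06 with library size alone and to 0.47 on the TPM scale. There the median gene rose by 0.39 and 0.70, more than Scarb2. In IR it was at 246, 269, 236 and 258 CPM against 265, 260, 258 and 253 CPM in IRSham, overlapping groups with a log2 fold change of -0.04 (95% interval from -0.15 to 0.08).

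Lamp2 has 3 coding transcripts that differ only in their last coding exon, and this exon sets the tail of the protein. LAMP2A, encoded by Lamp2-201, is the receptor of chaperone-mediated autophagy, and LAMP2B, encoded by Lamp2-202, is the form known as prominent in heart muscle. LAMP2C is encoded by Lamp2-203. The last coding exons are given on GRCm38 from GENCODE M21, minus strand, with the final 15 coding bases in capitals, where the signal that sorts the protein to the lysosome lies.
Lamp2-201, chrX:38405435-38405571: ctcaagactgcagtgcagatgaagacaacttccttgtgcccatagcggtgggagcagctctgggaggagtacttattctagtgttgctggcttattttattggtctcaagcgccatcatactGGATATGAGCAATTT
Lamp2-202, chrX:38421715-38421851: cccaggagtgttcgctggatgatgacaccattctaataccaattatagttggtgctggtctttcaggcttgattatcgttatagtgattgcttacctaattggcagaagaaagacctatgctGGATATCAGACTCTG
Lamp2-203, chrX:38402142-38402281: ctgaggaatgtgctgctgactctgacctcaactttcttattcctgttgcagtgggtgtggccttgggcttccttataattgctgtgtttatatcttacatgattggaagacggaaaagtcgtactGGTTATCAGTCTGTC
The coding sequence before this exon, 1108 bases, is the same in all 3. Compared base by base from the first base without gaps, Lamp2-201 and Lamp2-202 are identical at 53.3% of 137 bases. Lamp2-203, whose exon has 140 coding bases, is identical to them at 40.9% and 41.6%. Without a gap its end is not lined up with theirs, so these values cannot be set against the 53.3%. Lamp2-202 held the greatest part of Lamp2 TPM in every group, 60.4% ± 1.58 (SD, n = 4) after MI and 62.8% ± 2.56 in its sham, and 60.1% ± 2.69 after IR and 63.2% ± 1.28 in its sham. Lamp2-201 held 36.2% ± 0.887 after MI and 28.3% ± 2.51 in its sham, and 36.9% ± 3.16 after IR and 30.9% ± 1.1 in its sham. Its injured and sham libraries did not overlap in either injury, but the change of 7.99 ± 2.36 points after MI had an adjusted p of 0.055 by limma and that of 5.97 ± 2.36 points after IR one of 0.179.

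Lamp2-203 had a mean share under 5% and was outside the test, and it is described here because of its values. It held 2.36%, 1.88%, 3.55% and 2.27% in MI against 8.01%, 8.88%, 7.89% and 8.23% in MISham. In IR it held 2.39%, 2.74%, 1.9% and 1.42% against 5.12%, 4.14%, 5.07% and 5.22% in IRSham. The injured libraries lay below the libraries of their own sham in both injuries. The sham groups did not overlap with each other either, at means of 8.25% in MISham and 4.89% in IRSham. The base of each change therefore differed, and no change of Lamp2-203 was tested.

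**Figure D2:**
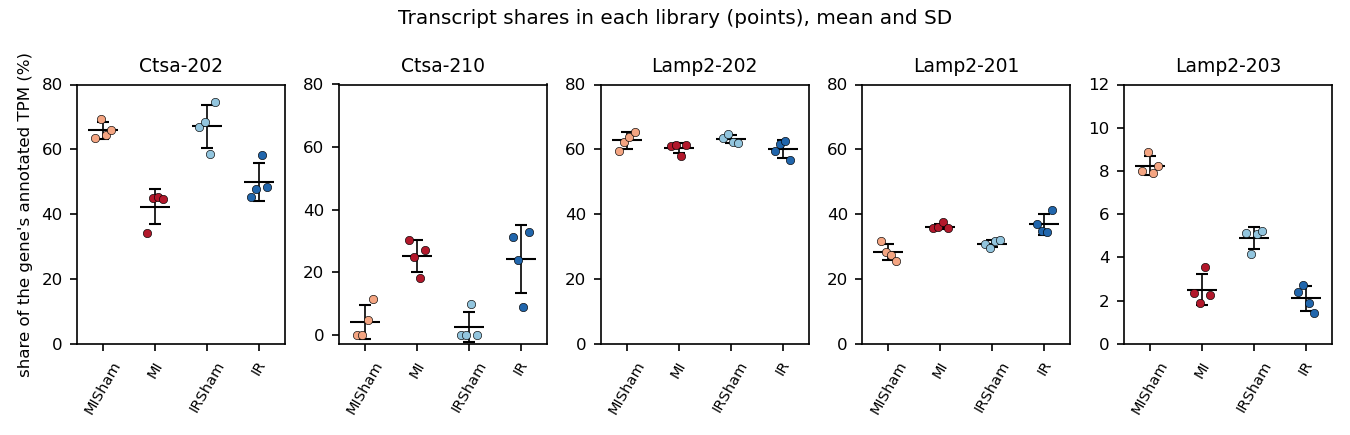
Share of the gene's annotated TPM (vertical axis, percent) held by 2 Ctsa transcripts and the 3 coding Lamp2 transcripts in each library (points), with the mean and SD of 4 libraries per group; the axis of Lamp2-203 is shorter than the others. Ctsa-210 held 18.1% to 30.4% in MI and at most 11.3% in MISham, and Lamp2-203 held 1.88% to 3.55% in MI and 7.89% to 8.88% in MISham.

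All 5 proton pump genes rose after both injuries, by very different amounts. The V0 subunit d has a form found in all tissues, Atp6v0d1, and a form known from osteoclasts, macrophages and kidney, Atp6v0d2. Atp6v0d2 was at 4.03, 4.96, 4.3 and 4.85 CPM in MI and at 1.32, 0.27, 0.276 and 0.28 CPM in MISham, where 33, 6, 7 and 6 counts stood behind the values. In IR it was at 8.5, 16.3, 4.46 and 8.16 CPM and in IRSham at 0.637, 0.44, 2.14 and 1.31 CPM. The groups did not overlap, MISham replicate 1 stood far above the other 3 shams, and the IR libraries differed among themselves more than 3-fold. The log2 fold changes were 3.05 ± 0.56 (adjusted p = 0.000169) and 3.04 ± 0.52 (adjusted p = 0.000111), and the MI value was 4.03 ± 0.71 without MISham replicates 1 and 3. Beside it, 4 of 6 osteoclast markers tested rose and 1 fell after MI, and 3 rose and 1 fell after IR. All 7 listed summed to 158 to 232 CPM in MI against 39.7 to 61.5 in MISham. In IR they summed to 85.9 to 137 CPM against 47 to 73.1 in IRSham. Calcr, Ocstamp and Dcstamp were at 0 in some libraries. Much of the MI sum was Mmp9, at a mean of 103 CPM in MI against 7.97 in MISham, and at 34.2 in IR against 12.1 in IRSham. Ocstamp was at only 1.1 CPM in MI against 0.0602 in MISham, and Oscar fell, from 0.769 to 0.358 CPM after MI. The part of osteoclast-like cells in the level of Atp6v0d2 was not tested.

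Atp6v0d1 was at 84.6, 97.8, 78.3 and 95.4 CPM in MI against 59.2, 49.4, 52.6 and 56.9 CPM in MISham. After IR, Atp6v0d1 was at 94.4, 116, 78.8 and 101 CPM against 52.2, 57.7, 52.3 and 52.3 CPM in IRSham. Its groups did not overlap either, but the rise was smaller, 0.71 ± 0.10 (adjusted p = 8.39e-06) and 0.86 ± 0.10 (adjusted p = 1.57e-06). In TPM, which is per transcript length, Atp6v0d1 remained the main form in every group, at 77.1 ± 10.2 (SD, n = 4) in MI against 2.28 ± 0.271 for Atp6v0d2, and at 83.4 ± 18.6 in IR against 4.68 ± 2.77. Atp6v1a, the catalytic V1 subunit, rose by 1.72 and 1.56, Atp6v1b2, the B subunit of most tissues, by 0.37 and 0.47, and Atp6ap1, an assembly factor of the pump, by 0.23 and 0.28.

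**Figure D3:**
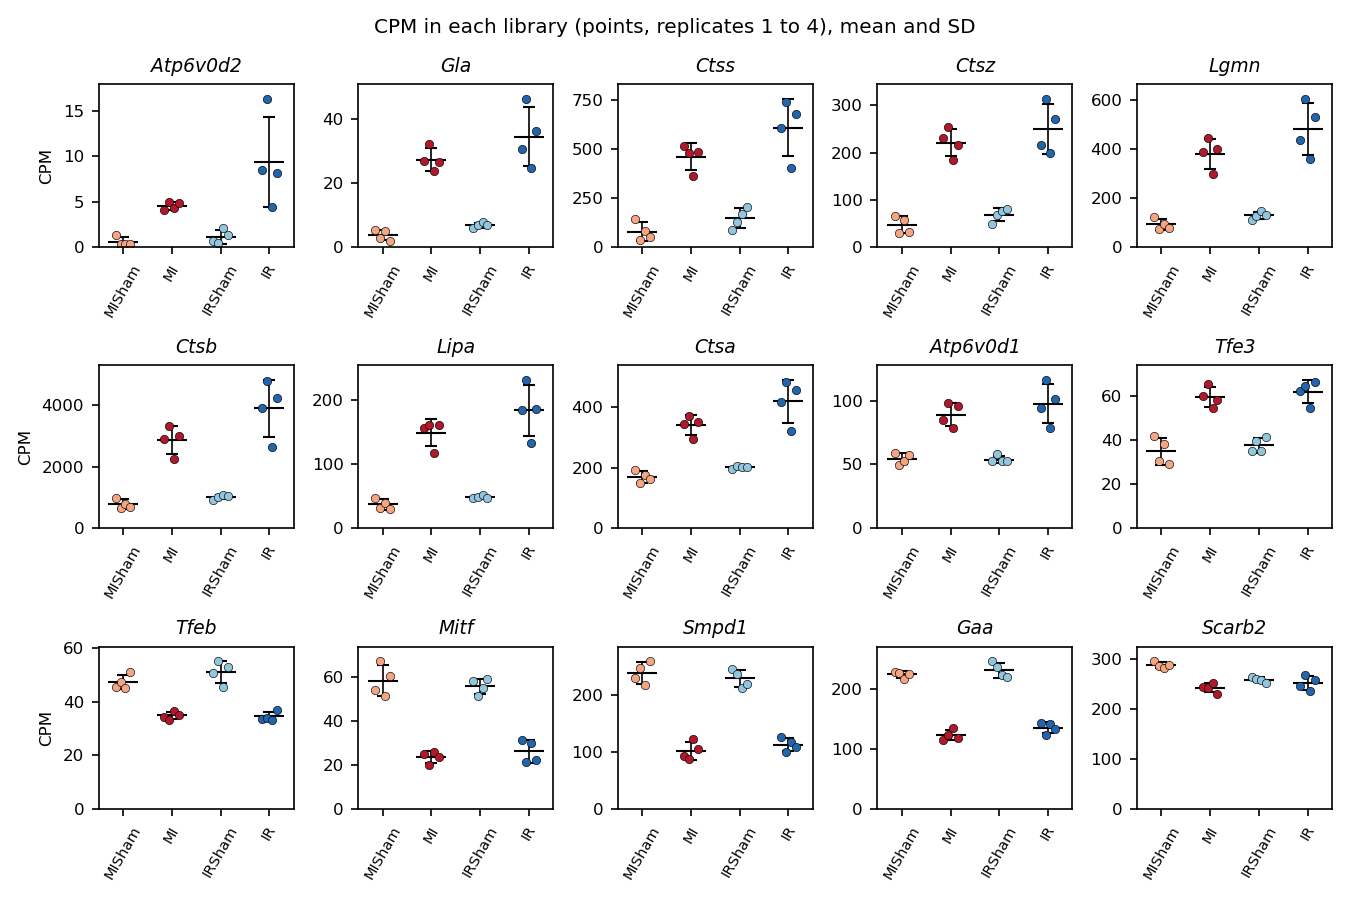
TMM-scaled CPM (vertical axis, from 0) of 15 genes in each of the 16 libraries (points), with the mean and SD of the 4 libraries of a group. In the first 10 panels, from Atp6v0d2 to Tfe3, every injured library lies above every library of its sham. In the panels of Tfeb, Mitf, Smpd1 and Gaa every injured library lies below, and Scarb2 overlaps between IR and IRSham. Tfeb and Scarb2 have the opposite sign on the TPM scale, where the median gene also rose.

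The responses to MI and IR were then compared with each other, as the difference of their log2 fold changes. None of the 39 genes was called by edgeR, where 0.117% of all genes tested had a larger value after MI and 0.076% a smaller one. At an unadjusted p under 0.05 there were 2, Scarb2 at -0.21 (95% interval from -0.38 to -0.05) and Manba at -0.27 (from -0.50 to -0.03), against 14.7% of all genes. DESeq2 called 1 gene lower, against 1.39% of all genes. The fold change was larger after MI in 15 genes and smaller in 24, a count not made over all genes. The differences ran from -0.34 for Galc to 0.51 for Ctss. Their median was -0.04, against 0.04 over all genes tested. A missed threshold does not show equal responses. The interval of Ctss reached from -0.51 to 1.54, that of Gla from -0.19 to 1.19, that of Ctsb from -0.56 to 0.41 and that of Lipa from -0.36 to 0.53. Without MISham replicates 1 and 3, 2 of the 39 genes were called with a larger value after MI, Ctsc at 0.81 ± 0.21 (adjusted p = 0.0345) and Gla at 1.18 ± 0.31 (adjusted p = 0.0415). This share is close to that of all genes, of which 4.46% were called so without those libraries. Replicates 1 and 3 were the higher MISham libraries in 22 of the 39 genes, Ctsc and Gla among them. Leaving them out therefore favours a larger value after MI. For transcript shares, 0 of the 68 transcripts and 0% of all those tested were called for the difference by limma, with 9 of the 68 at an unadjusted p under 0.05, against 7.82% of all transcripts, and 0 called from the log ratio of transcript to rest.

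The sham groups were compared because both serve as the base of a response, and they too differ in the region sampled. The level in MISham was below that in IRSham in 33 of the 39 genes, a count not made over all genes. The median log2 fold change was -0.14 for the 39 genes and -0.04 over all genes tested. The 39 genes also shared an order of libraries, described below, so they are not separate observations. None of the 39 was called by edgeR, where 2.34% of all genes tested were higher in MISham and 0.866% lower. At an unadjusted p under 0.05 there were 15 of 39, against 14.2% of all genes. DESeq2 called 1 higher and 2 lower, against 3.13% and 1.75% of all genes. The lowest adjusted p belonged to Ctsk, at -0.61 ± 0.18 (adjusted p = 0.0954). Without MISham replicate 1 the count of lower genes was 5, against 1.61% of all genes. Without MISham replicates 1 and 3 it was 11, against 5.55% of all genes. These were led by Ctss at -1.78 ± 0.33 (adjusted p = 0.00542), Gla at -1.51 ± 0.26 (adjusted p = 0.00202) and Ctsz at -1.13 ± 0.22 (adjusted p = 0.00501). Replicates 1 and 3 were the higher MISham libraries in 22 of the 39 genes, these named ones among them. Leaving them out favours such calls, which are therefore not read as a difference between the shams.

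Within groups the lysosomal genes shared an order of libraries. In MISham, replicates 1 and 3 were both above replicates 2 and 4 in 22 of the 39 genes (56.4%), a pattern found in 24.5% of all genes tested. In IR, replicates 2 and 4 were both above 1 and 3 in 32 genes (82.1%), against 20.1% of all genes, and 3 genes showed the reverse order, namely Gaa, Smpd1 and Mitf, which fell after injury. In MI, replicate 3 was the lowest of 4 in 32 genes (82.1%, against 32.6% of all genes) and replicate 2 the highest in 26 (66.7%, against 25.3%). The same libraries differed in their cell type markers. The macrophage markers summed to 1690 and 1280 CPM in MISham replicates 1 and 3 and to 725 and 809 in replicates 2 and 4. The IR libraries did not follow that order in macrophage markers, which summed to 5460 and 3450 CPM in replicates 1 and 3 and to 5060 and 6010 in replicates 2 and 4. Their cardiomyocyte markers summed to 26900 and 22900 CPM in replicates 1 and 3 and to 13200 and 13800 in replicates 2 and 4, and of the MI libraries replicate 3 had the highest cardiomyocyte sum, 21800, and the lowest macrophage sum, 3080. The part of cell makeup in these orders was not tested.

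**Figure D4:**
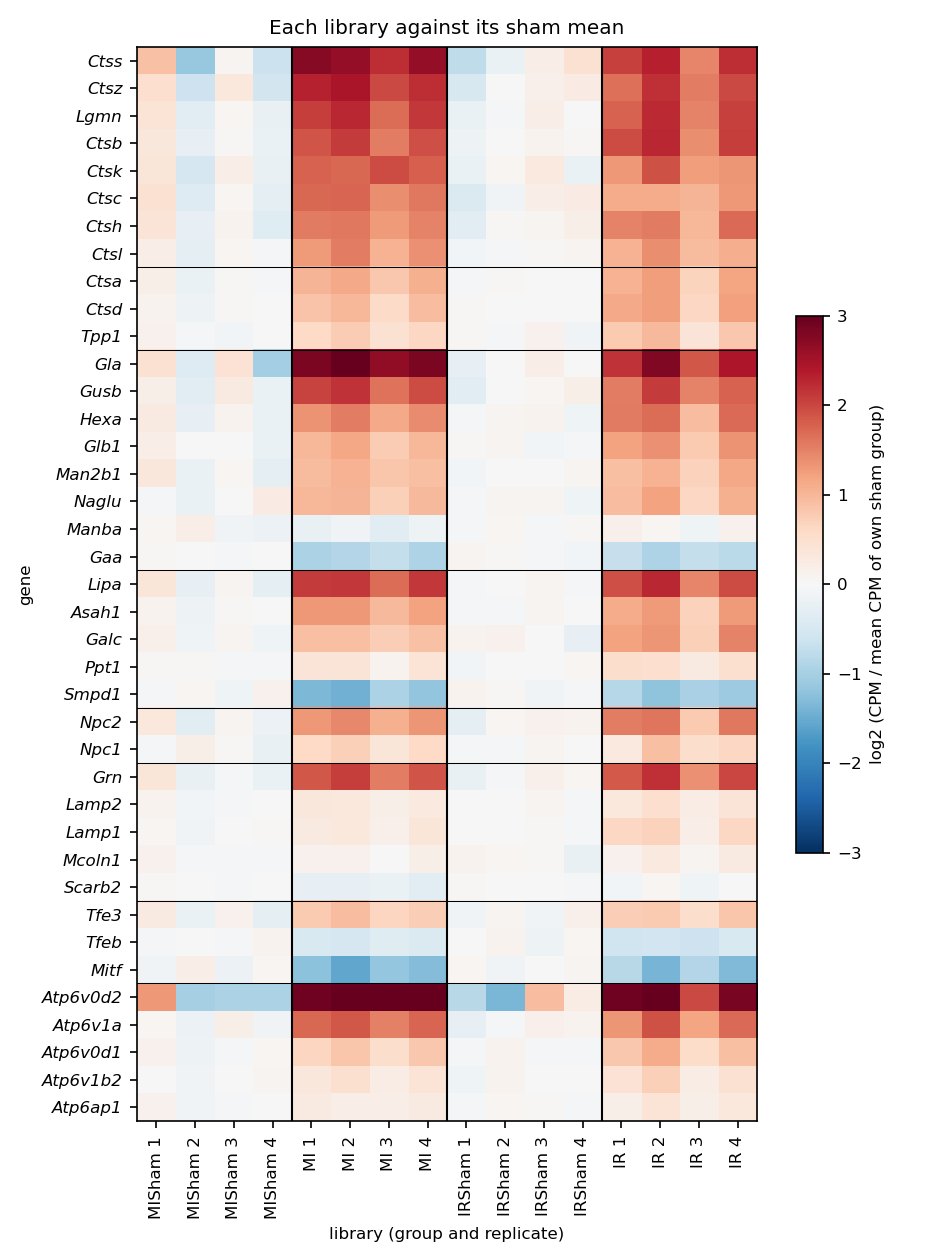
Each library's CPM as log2 of its ratio to the mean of its own sham group (colour, red higher and blue lower, the scale ending at 3) for the 39 genes (rows, by role) and 16 libraries (columns). MISham replicates 1 and 3 are redder than 2 and 4 in 22 genes. IR replicates 2 and 4 are redder than 1 and 3 in 32 genes. The blue rows of Tfeb and Scarb2 depend on the scale. Both have the opposite sign in TPM, where the median gene also rose.

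Levels between genes were compared in TPM. The 39 genes together held 5935 ± 886 TPM (SD, n = 4) after MI and 1744 ± 229 TPM in its sham, and 7024 ± 1742 TPM after IR and 2116 ± 100 TPM in its sham. No injured library, from 4831 TPM up, reached into the sham range, which ended at 2254 TPM. On this scale the median log2 change of all genes was also up, by 0.70 after MI and 0.57 after IR. Part of the difference between these totals is therefore shared with the whole table. Ctsd was first in every group, at 1440 ± 227 TPM after MI and 476 ± 42.7 TPM in its sham, and at 1890 ± 503 TPM after IR and 565 ± 28.7 TPM in its sham. After it came Ctsb at 661 ± 151 TPM, Ctss at 455 ± 81.1, Lgmn at 424 ± 87.3 and Lamp1 at 391 ± 35.6 in MI, the last 3 within each other's spread. In IR the same genes followed, Ctsb at 800 ± 288 TPM, Ctss at 598 ± 181, Lgmn at 512 ± 155 and Lamp1 at 474 ± 94, and their spreads overlapped. In the shams Lamp1 was next after Ctsd, at 193 ± 13.1 TPM in MISham and 207 ± 8.82 in IRSham. From MISham to MI, the genes that moved by 10 or more places of 39 were Smpd1, from place 4 to 23, Gaa, from 8 to 24, Gusb, from 27 to 15, Ctsz, from 17 to 6, and Lipa, from 29 to 19. Ctss went from place 10 to 3. The share of Ctsb in the members' TPM was 11.1% ± 0.932 after MI and 6.19% ± 0.9 in its sham, and 11.2% ± 1.52 after IR and 7.14% ± 0.671 in its sham.

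These levels depend on the scale and on how reads were assigned. As a check, the mean TPM was divided by the mean CPM per kilobase of annotated exon. The median ratio over the 39 genes was 1.96 after MI and 1.22 in its sham, and 1.91 after IR and 1.3 in its sham. The higher ratio after injury went with the rise of the median of all genes on the TPM scale. For Ctsd the ratio was 13.5 in MI and 7.99 in MISham, and by CPM per kilobase Ctsd held place 8 in MI and place 4 in MISham, with Ctsb first in MI and Lamp1 first in MISham. On the genome Ctsd overlaps the annotated coding gene Gm49369 on the same strand. Grn had a ratio of 1.32 in MI and 0.512 in IR, and its TPM was 217 ± 37.5 in MI and 118 ± 23.6 in IR while its CPM was 569 ± 85.3 and 801 ± 180. Of the TPM of Ctsb, the short retained-intron transcript Ctsb-202, of 801 bases with 710 shared with the full-length Ctsb-201, held 593 ± 142 in MI and 95.2 ± 27.3 in MISham. Ctsb-201, of 4743 bases, held 67.6 ± 12.4 and 14 ± 2.23. Since the strand setting is not given, reads of 9 genes that overlap a coding gene on the opposite strand cannot be separated from that gene's.

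**Figure D5:**
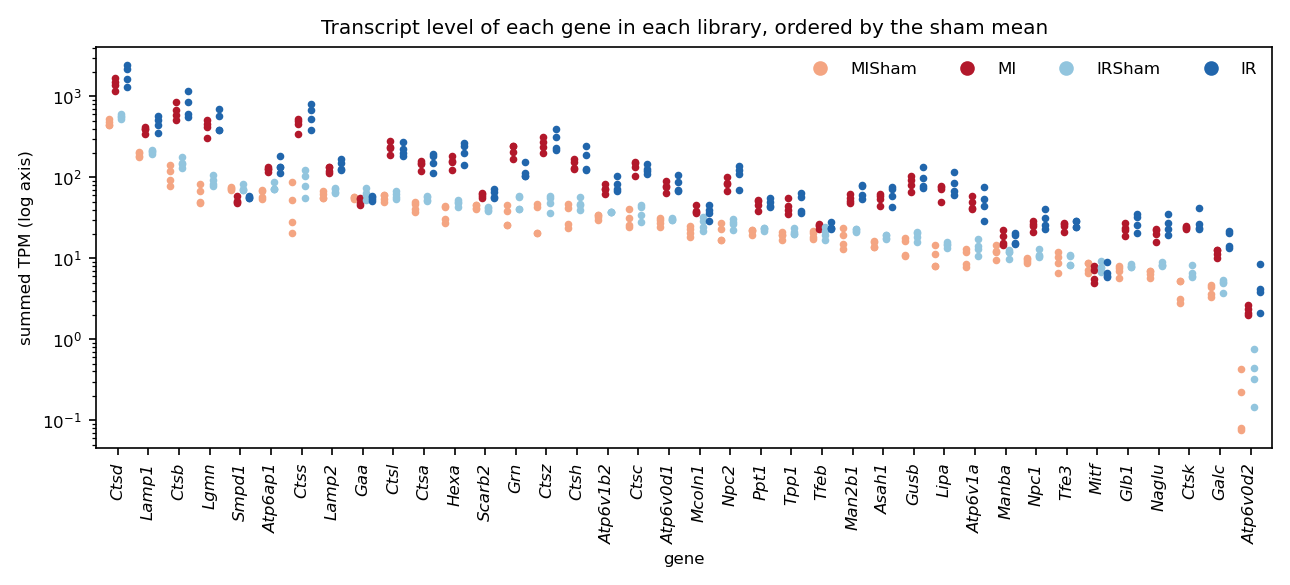
Summed TPM (vertical axis, log scale) of 38 of the 39 genes in each of the 16 libraries (points, coloured by group), ordered from left to right by the mean of both sham groups; Gla is left out because its TPM is listed at 0 in most sham libraries. Ctsd is the highest in every group and Atp6v0d2 the lowest, and the injured libraries of Ctss, Lgmn and Ctsz lie far above their shams.

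Other genes of the same compartment moved less uniformly. The counts below stand against all genes tested, of which 34.8% were higher and 30.2% lower after MI. After IR these shares were 29.5% and 28.2%. Of 29 further lysosomal hydrolases, 21 rose and 3 fell after MI and the same numbers after IR, with median log2 fold changes of 0.71 and 0.68. Acp5, the tartrate-resistant acid phosphatase of osteoclasts and macrophages, rose by 3.55 ± 0.38 (adjusted p = 7.99e-07) after MI and 1.95 ± 0.35 (adjusted p = 0.000185) after IR. Galns, which removes sulfate from keratan sulfate, rose by 2.2 and 2.17. Ctsf, a cysteine cathepsin outside the 8, fell by 2.12 on the log2 scale after MI (adjusted p = 2.35e-07) and by 1.49 after IR (adjusted p = 1.2e-05), and Idua, alpha-iduronidase, fell by 0.44 and 0.54. Of 18 further membrane and sorting genes, 11 rose and 5 fell after MI and 13 rose and 3 fell after IR, with medians of 0.35 and 0.45. Slc15a3 and Slc11a1, transporters of peptides and of metal ions in phagocytes, rose by 2.43 and 2.37 after MI and by 1.85 and 1.78 after IR, while Laptm4b fell by 0.97 and 0.70 and Mfsd8 by 0.81 and 0.70.

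In the rest of the proton pump genes rose and fell. Of 17 further pump genes 15 were tested, and 7 rose and 4 fell after each injury. Over all genes tested, 34.8% were higher and 30.2% lower after MI, and 29.5% and 28.2% after IR. The pump medians of -0.02 and 0.11 were near the 0.08 and 0.03 of all genes, so these counts are not read as a trait of the pump. Tcirg1, the a3 subunit known from osteoclasts and macrophages, rose by 2.26 ± 0.20 (adjusted p = 1.06e-07) and 1.79 ± 0.20 (adjusted p = 1.66e-06), and Atp6ap2, an accessory protein, by 1.14 and 1.04. Atp6v0e2 fell by 1.32 and 1.44. Of 15 genes of the MiT and mTORC1 pathway, 3 rose and 8 fell after MI and 3 rose and 7 fell after IR, with medians of -0.19 and -0.08. Tfec, a MiT factor of macrophages, rose by 1.78 ± 0.31 (adjusted p = 6.97e-05) and 1.56 ± 0.31 (adjusted p = 0.000305), and Rragd, a GTPase that recruits mTORC1 and the MiT factors to the lysosome, fell by 2.07 and 1.43. Of 14 autophagy genes tested, 4 rose and 8 fell after MI and 3 rose and 8 fell after IR, with medians of -0.32 and -0.34. Map1lc3a, an LC3 protein of the autophagosome membrane, fell by 1.84 and 1.68. Of 5 protease inhibitors 2 rose and 3 fell after MI and 2 rose and 2 fell after IR, and Cstb, the cytosolic cathepsin inhibitor stefin B, rose by 2.45 ± 0.19 (adjusted p = 3.09e-08) and 1.90 ± 0.19 (adjusted p = 5.53e-07).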

How the data were processed

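Poly(A) RNA of 16 short-read mouse heart libraries was used; 4 long-read libraries were not analysed here. The authors deposited raw gene counts, whole numbers with no normalization, and transcript TPM, abundances scaled to a fixed sum, per the column labels and values. Named without roles, per the submitters' processing notes, are kallisto 0.50.1, featureCounts 2.0.1, SAMtools 1.7, HISAT2 2.2.1 and GRCm39; the annotation release and strand setting are not given in the sources used here. Symbols came from GENCODE M21 by identifier, and coordinates and sequences from M21 or RefSeq are on GRCm38. The 2 transcript table columns with no sample were not used.

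The gene test was edgeR 4.0.16's in R 4.3.3 (TMM scaling, filterByExpr with a minimum count of 10 and total of 15, robust quasi-likelihood fit over all 16 libraries, Benjamini-Hochberg over 19741 genes, call at an adjusted p under 0.05). The standard error of a fold change was derived from its test statistic, and 95% intervals from that error and the normal distribution. Transcript shares were tested with limma 3.58.1 where the gene's TPM averaged 5 or more and 2 or more transcripts averaged 5% or more of it; a share counts only transcripts matched to the gene. DESeq2 1.42.0 and limma on log2(TPM + 1) were alternatives, with library size scaling, no filter, a replicate block and libraries left out. The tests were tested on simulated data.

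The members and gene lists were chosen with earlier results of these data known. Full values were given for the 5 largest rises and 5 largest falls among called members in each injury, the MiT factors, both Atp6v0d genes and members with a called share; other lists name up to 2 rises and 2 falls. Replicates of a group differed by more than counting noise, and no duplicated library was found.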

Additional observations from a re-analysis of the deposited data

Results flagged for a closer look

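In 8 of 156 groups of 4 libraries, 1 library lay farther from the other 3 than Dixon's criterion for 4 values allows. Chance gives about 1 in 20 such groups, or 7.8 of 156. In MI replicate 3, Lipa was low at 117 CPM against 156 to 160 in the other 3, and Ppt1 at 75.4 CPM against 91.7 to 93.4. In IR replicate 3, Npc2 was low at 195 CPM against 330 to 343, and Lamp1 at 527 CPM against 710 to 745. In IR replicate 2, Ctsk was high at 44.5 CPM against 28.3 to 30. In MISham replicate 1, Atp6v0d2 was high at 1.32 CPM against 0.27 to 0.28 and Mcoln1 at 46 CPM against 40.1 to 40.9. In IRSham replicate 2, Atp6v0d1 was high at 57.7 CPM against 52.2 to 52.3.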

How the results depend on the processing

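Leaving out 1 library at a time gave 32 to 32 genes higher and 5 to 6 lower after MI, 32 to 33 higher and 4 to 4 lower after IR, 0 to 0 called for the difference, and 0 to 0 higher and 0 to 5 lower between the shams. For transcript shares it gave 1 to 3 calls after MI, 0 to 3 after IR and 0 to 0 for the difference. The replicate block gave 32 higher and 6 lower after MI, 32 and 4 after IR, and 0 for the other gene comparisons. It gave 2, 2 and 0 transcript calls, and Mcoln1 after IR lost its call under it (edgeR, adjusted p = 0.055). Same-numbered libraries had correlations of their deviations from -0.148 to 0.055, so no pairing by number was seen. Such correlations cannot exclude that the numbers pair the samples. Genes lower after MI numbered 3 with library size alone and 1 on the TPM scale, where 1 was lower after IR. The sign turned with library size alone for Manba (0.11) and Scarb2 (0.06) after MI and Scarb2 (0.26) after IR, and on the TPM scale for Manba (0.51), Scarb2 (0.47) and Tfeb (0.37) after MI and Scarb2 (0.60) and Tfeb (0.25) after IR. On these scales the median gene moved up as well. With library size alone it rose by 0.39 after MI and 0.32 after IR, and in TPM by 0.70 and 0.57. Scarb2 after IR was also 0.02 without IR replicates 1 and 3. DESeq2 called 1 gene lower for the difference and 1 higher and 2 lower between the shams. Without MISham replicates 1 and 3 there were 2 genes higher for the difference, 11 lower between the shams and 1 transcript called after MI. Those replicates were the higher shams in 22 of the 39 genes, so leaving them out favours these gene calls. After IR, 4 transcripts were called with a summed TPM of at least 20 and 4 from the log ratio of transcript to rest, adding Ctsh-204 and Tpp1-202 to the 2 of Ctsa; after MI the same settings added Tpp1-205. The cause of these changes was not tested. Alternatives were tallied for the fold changes of the 39 genes after each injury, for the lowest and highest value in the difference and between the shams, and for the 2 Ctsa transcripts after each injury. Among these, 9 values turned sign, 31 lost a call, 5 gained one and 1253 kept direction and call; calls gained by other genes or transcripts are not in this tally.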
